A study of Mus musculus with 12 samples.

Results

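The genes of mitochondrial fusion and fission were examined by RNA-seq in dendritic cells (DCs) derived from mouse bone marrow. The group was set by name, with no rule on measured values but with earlier results of these data known. It held 10 of the 55471 genes in the count table: *Opa1*, *Mfn1* and *Mfn2* for fusion, *Dnm1l*, *Fis1*, *Mff*, *Mief1* and *Mief2* for fission, and *Oma1* and *Yme1l1* for the proteases that cut OPA1. Each symbol matched a single row, and all 10 passed the filter on low counts that left 18228 genes for testing.

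Mitochondria form a network that is remodelled by GTPases of the dynamin family. The mitofusins MFN1 and MFN2 join outer membranes, and OPA1 joins inner membranes and shapes cristae, the folds that carry the respiratory chain. DRP1, the product of *Dnm1l*, is recruited from the cytosol by adaptors on the outer membrane and constricts the organelle, while the proteases YME1L1 and OMA1 convert long OPA1 into short forms and so tie inner membrane fusion to stress and to energy state.

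DCs were grown from bone marrow of C57BL/6 mice with the cytokine GM-CSF and were transduced with a retrovirus that carried a short hairpin RNA (shRNA) and a human CD8 reporter, on which transduced cells were sorted. The control hairpin (shControl) was directed at firefly luciferase, and the other (sh*Ppargc1b*) at *Ppargc1b*, which encodes the transcriptional co-activator PGC-1β. Cells of each kind received interferon-β (IFN-β), an antiviral cytokine, for 6 h or no stimulus, which gave 4 groups of 3 libraries each. The knockdown rested on 1 hairpin named in the labels, and the labels did not say whether the libraries of a group came from separate cultures, so that p-values measure the spread between these libraries, which may be technical. Library totals were 49.9 to 77.7 M counts.

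*Ppargc1b*, the targeted gene, was at 34.5 ± 1.94 CPM (read counts brought to a common library size, with sizes adjusted by TMM, the trimmed mean of M-values) in unstimulated shControl and 19.4 ± 0.851 in unstimulated sh*Ppargc1b* cells, and at 27.8 ± 3.93 and 18.7 ± 2.83 with IFN-β (SD, n = 3 each). The log2 fold change was -0.83 (adjusted p = 3.2e-05) in unstimulated and -0.57 (adjusted p = 9.5e-04) in IFN-β-treated cells, so the transcript was reduced and not lost. Of the 8 dendritic markers, *Cd74* (1905 CPM or more), *Itgax* (901 CPM or more) and *H2-Ab1* (552 CPM or more) were abundant in every library, whereas *Zbtb46* (16.6 to 33.5 CPM), *Dpp4* (11.6 to 35.4 CPM), *Batf3* (8.67 to 13.3 CPM) and *Flt3* (1.45 to 3.81 CPM) were low. The macrophage marker *Csf1r* was at 1159 CPM or more. The summed lymphocyte and erythroid markers stayed below 1 CPM. In these bulk libraries, fewer cells of a type and less RNA per cell cannot be told apart.

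All fold changes below are log2 values fitted with edgeR's quasi-likelihood test across all 18228 genes, with Benjamini-Hochberg adjusted p-values, and a gene was called at an adjusted p under 0.05. Without IFN-β, 2 of the 10 genes, *Opa1* and *Mfn2*, fell with the knockdown and none rose, beside 11.1% of all tested genes called lower and 12.4% called higher. With IFN-β only *Opa1* among the 10 was lower in sh*Ppargc1b* cells and none was higher, beside 12.7% and 11.5% of all genes. IFN-β gave more calls. In shControl cells *Opa1*, *Mfn1* and *Mfn2* fell and *Fis1*, *Mief2* and *Yme1l1* rose, beside 24.6% of all genes lower and 23.7% higher. In sh*Ppargc1b* cells *Mfn1* and *Mfn2* fell and *Fis1*, *Mief2* and *Yme1l1* rose, beside 21.2% and 21.4%. The share of the 10 genes called was thus near or below that of all genes for the knockdown and somewhat above it for IFN-β, and the median log2 fold change of the 10 was between -0.07 and 0.04 in these 4 comparisons. Each knockdown comparison shares a group of libraries with each IFN-β comparison, so their values are not independent of each other.

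**Figure D1:**
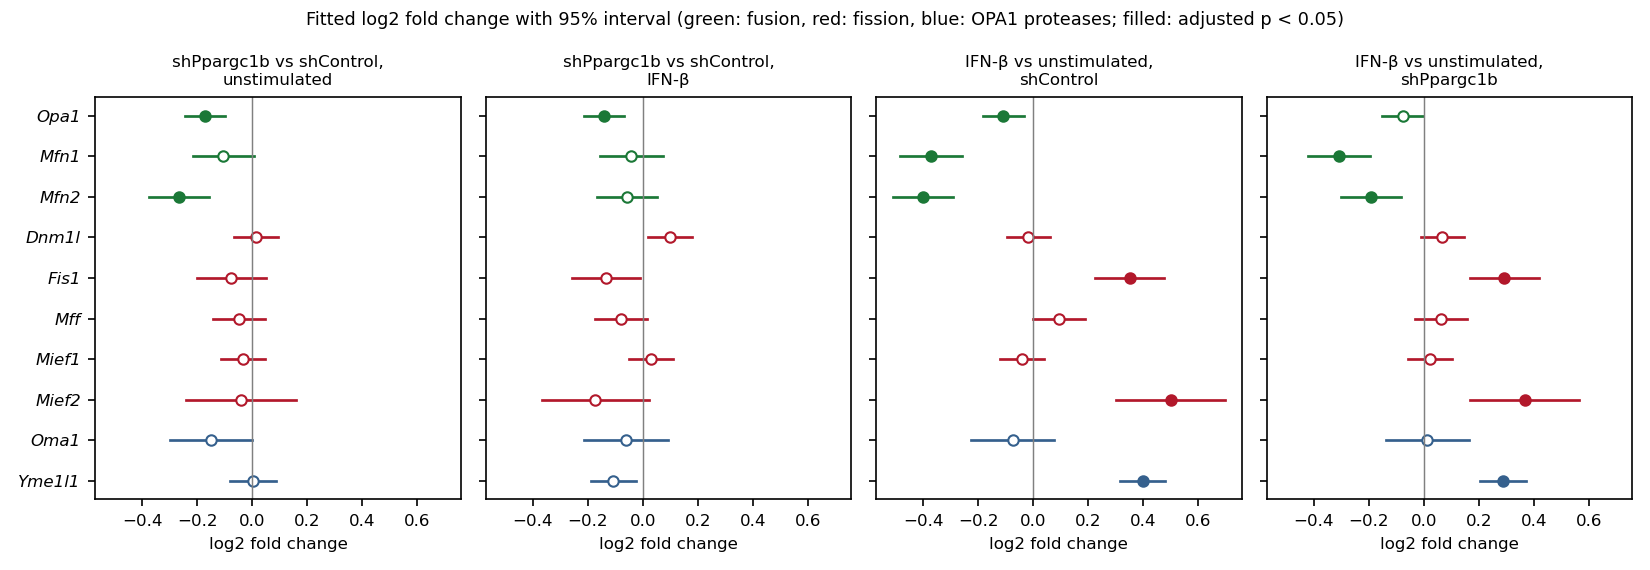
Fitted log2 fold change (x axis) of each of the 10 genes (y axis) with its 95% interval in 4 comparisons of 3 libraries with 3; filled points passed an adjusted p of 0.05, and colours mark fusion (green), fission (red) and OPA1 protease (blue) genes. The 3 fusion genes lie left of 0 in all 4 panels, and *Fis1*, *Mief2* and *Yme1l1* lie right of 0 in both IFN-β panels.

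*Opa1* (ENSMUSG00000038084, chr16:29579334-29654884, plus strand, GRCm38) encodes the GTPase of inner membrane fusion and was the gene of the 10 that fell in both knockdown comparisons. Its level was 106, 106 and 110 CPM in the 3 unstimulated shControl libraries and 96.7, 94.0 and 95.4 CPM in the 3 unstimulated sh*Ppargc1b* libraries. With IFN-β it was 98.8, 100.4 and 99.7 CPM in shControl and 91.6, 90.5 and 89.3 CPM in sh*Ppargc1b* libraries. In both treatments every sh*Ppargc1b* library lay below every shControl library. The knockdown effect in unstimulated cells was -0.17 ± 0.03 (SE, adjusted p = 0.00165 in edgeR), where the level fell by 11.2%. Under IFN-β it was -0.14 ± 0.03 (adjusted p = 0.00725), where the level fell by 9.3%. The second call was lost when every gene with at least 1 count was tested (adjusted p = 0.132). IFN-β lowered *Opa1* by 0.11 in shControl cells (-0.11 ± 0.03, adjusted p = 0.0161), a call that was lost without shControl IFN-β replicate 1 (0.103), 2 (0.0788) or 3 (0.0821), or without sh*Ppargc1b* IFN-β replicate 3 (0.0551), when only the libraries compared were fitted (0.0611), and when every gene with at least 1 count was tested (0.124). In sh*Ppargc1b* cells the IFN-β difference was -0.08, with a 95% interval of -0.15 to -0.00344 (adjusted p = 0.0874).

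The sequence before the start site is shown for *Opa1* and *Mfn2* because they were the 2 genes that fell with the knockdown in unstimulated cells. PGC-1β is known to co-activate estrogen-related receptors and nuclear respiratory factor 1, and interferon acts through factors that bind the interferon-stimulated response element (ISRE). The RefSeq promoter windows (GRCm38.p6, 250 bases before and 50 after a start site) of all 10 genes were searched on both strands for exact matches to an estrogen-related receptor element (TCAAGGTCA), a nuclear respiratory factor 1 core (TGCGCATGC) and an ISRE core (GAAANNGAA). *Opa1* held the nuclear respiratory factor 1 core, 57 bases before its start, and the ISRE core, 137 bases before it, both on the reverse strand and without overlap, and none of the other 9 genes held any of the 3. Of all 32851 windows, 0.423% held the estrogen-related receptor element, 1.52% the nuclear respiratory factor 1 core and 8.56% the ISRE core. A match of letters is a description only, and its absence says nothing of a factor. In the lines below, which give the 250 bases before the start at chr16:29579084-29579333 (plus strand) and before the farthest *Mfn2* start at chr4:147904910-147905159 (minus strand), capitals mark the matches.
Opa1: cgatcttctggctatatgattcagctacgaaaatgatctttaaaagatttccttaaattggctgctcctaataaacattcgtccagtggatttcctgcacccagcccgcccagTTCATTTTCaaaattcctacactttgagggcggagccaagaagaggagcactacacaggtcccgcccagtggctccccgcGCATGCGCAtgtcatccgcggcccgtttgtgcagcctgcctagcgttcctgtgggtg
Mfn2: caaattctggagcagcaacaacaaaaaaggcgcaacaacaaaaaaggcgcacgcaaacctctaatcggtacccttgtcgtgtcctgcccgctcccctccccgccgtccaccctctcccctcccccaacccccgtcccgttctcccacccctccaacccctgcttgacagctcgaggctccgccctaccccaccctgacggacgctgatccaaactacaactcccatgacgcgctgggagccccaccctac

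*Mfn2* (ENSMUSG00000029020, chr4:147873599-147904704, minus strand) encodes a GTPase of outer membrane fusion that also links mitochondria to the endoplasmic reticulum. It was at 42.4, 43.2 and 43.7 CPM in unstimulated shControl libraries and at 33.8, 36.8 and 36.9 CPM in unstimulated sh*Ppargc1b* libraries. With IFN-β it was at 33.8, 30.9 and 33.2 CPM in shControl and 31.9, 30.1 and 32.2 CPM in sh*Ppargc1b* libraries. The unstimulated shControl libraries thus stood above all 9 others, and with IFN-β both kinds of cell overlapped. The knockdown effect was -0.27 ± 0.05 without IFN-β (adjusted p = 0.00122), the largest change of the 10 in that comparison, and -0.06 with IFN-β (95% interval -0.17 to 0.05, adjusted p = 0.477). The IFN-β effect on *Mfn2* was -0.40 ± 0.05 in shControl cells (adjusted p = 8.6e-06). In sh*Ppargc1b* cells *Mfn2* fell less, with an effect of -0.19 ± 0.05 (adjusted p = 0.00663). The difference between these effects, the interaction of knockdown and IFN-β, was 0.21 (95% interval 0.05 to 0.36) and did not pass in edgeR (adjusted p = 0.264). It was the single one of the 10 genes with an unadjusted interaction p under 0.05. Neither edgeR nor DESeq2 called an interaction for any of the 10 (0 in each), beside 0.73% of all genes with edgeR.

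*Mfn1* (ENSMUSG00000027668, chr3:32529465-32579239, plus strand), the other mitofusin, tethers outer membranes of adjacent mitochondria. Its level was 37.4, 36.1 and 36.3 CPM in unstimulated shControl and 32.6, 35.4 and 34.0 CPM in unstimulated sh*Ppargc1b* libraries. It was 28.6, 29.1 and 27.3 CPM with IFN-β in shControl and 28.8, 27.8 and 25.9 CPM in sh*Ppargc1b* libraries. All IFN-β libraries lay below all unstimulated ones. In shControl cells *Mfn1* fell by 22.6% with IFN-β (-0.37 ± 0.05, adjusted p = 2.6e-05). In sh*Ppargc1b* cells it fell by 19.1% (-0.31 ± 0.05, adjusted p = 2.1e-04). The knockdown differences, -0.11 without (95% interval -0.22 to 0.00548, adjusted p = 0.17) and -0.04 with IFN-β (-0.16 to 0.07, adjusted p = 0.63), did not pass. *Mfn1* and *Mfn2* therefore both fell with IFN-β, while of the mitofusins *Mfn2* alone was called for the knockdown; the difference between them in that response is given below as a ratio within libraries.

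**Figure D2:**
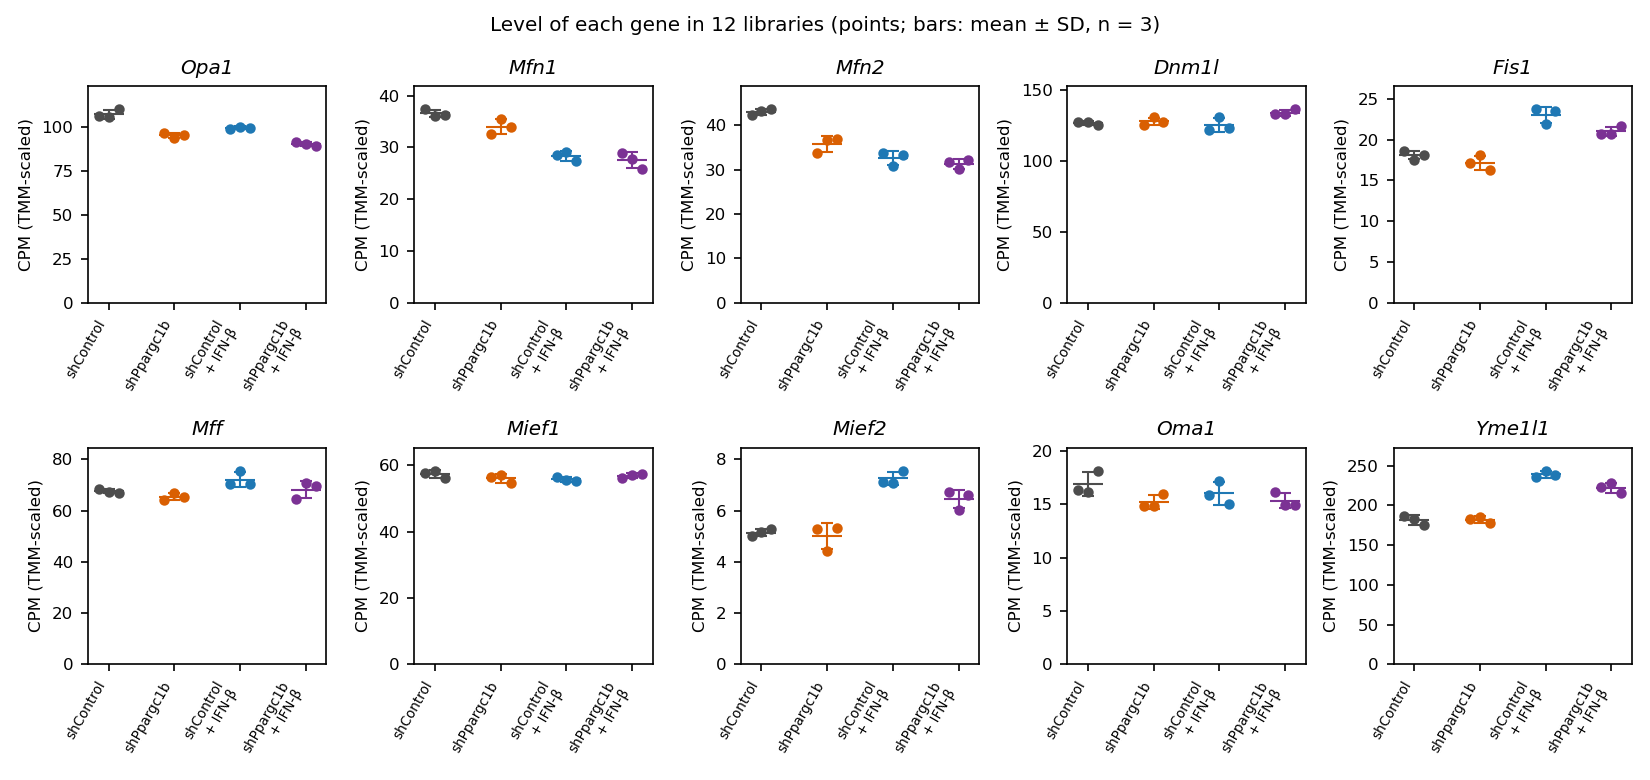
TMM-scaled CPM (y axis, from 0) of the 10 genes in the 12 libraries, grouped by hairpin and treatment (x axis), with points for libraries and bars for the mean ± SD of 3. *Opa1* is lowest in the IFN-β-treated sh*Ppargc1b* libraries, the unstimulated shControl libraries of *Mfn2* stand above the rest, and *Yme1l1*, *Fis1* and *Mief2* are higher in both IFN-β groups.

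*Dnm1l* (ENSMUSG00000022789, chr16:16312230-16358959, minus strand) encodes DRP1, the GTPase that drives fission. It was at 127, 127.5 and 125 CPM in unstimulated shControl and 125, 130.4 and 127 CPM in unstimulated sh*Ppargc1b* libraries. With IFN-β it was at 121, 130.5 and 123 CPM in shControl and 132.5, 132.7 and 136 CPM in sh*Ppargc1b* libraries. Its libraries overlapped in the unstimulated knockdown comparison and for IFN-β in shControl cells, whereas the IFN-β-treated sh*Ppargc1b* libraries lay above the other 9. No comparison passed. The knockdown difference was 0.01 without IFN-β (95% interval -0.07 to 0.09, adjusted p = 0.854) and 0.10 with it (0.02 to 0.18, adjusted p = 0.0697). The latter passed in 8 of 18 alternative settings. Among them were library totals (adjusted p = 0.022) and a block for runs of library codes (0.0459). The others each left out 1 of the 6 unstimulated libraries (adjusted p = 0.0294 to 0.0405). The IFN-β difference was -0.02 in shControl (-0.10 to 0.06) and 0.07 in sh*Ppargc1b* cells (-0.01 to 0.15). An antisense gene overlaps 243 of its exonic bases and held 99 counts over all libraries, against 89969 for *Dnm1l*.

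The fission adaptors did not move as a group. *Fis1* (ENSMUSG00000019054, chr5:136953275-136966234, plus strand), a small protein anchored in the outer membrane, was at 18.6, 17.6 and 18.2 CPM in unstimulated shControl and 23.7, 21.9 and 23.5 CPM in IFN-β-treated shControl libraries. In sh*Ppargc1b* libraries it was at 17.1, 18.1 and 16.3 CPM without and 20.8, 20.6 and 21.7 CPM with IFN-β. Every IFN-β library lay above every unstimulated one. *Fis1* rose by 27.4% in shControl (0.35 ± 0.06, adjusted p = 1.2e-04) and 22.5% in sh*Ppargc1b* cells (0.29 ± 0.06, adjusted p = 7.3e-04). It had differences of -0.08 and -0.13 for the knockdown without and with IFN-β (adjusted p = 0.406 and 0.116), and with IFN-β the sh*Ppargc1b* libraries lay below the shControl libraries.

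*Mief2* (ENSMUSG00000018599, chr11:60728398-60732951, plus strand) encodes MiD49, an outer membrane receptor for DRP1, and had the fewest counts of the 10, 286 to 537 per library. It was at 5.01, 5.14 and 5.27 CPM in unstimulated shControl and 7.13, 7.09 and 7.55 CPM in IFN-β-treated shControl libraries, and at 5.28, 4.42 and 5.30 CPM and 6.71, 6.03 and 6.61 CPM in sh*Ppargc1b* libraries without and with IFN-β. The IFN-β libraries again lay above all unstimulated ones. The rise of 0.50 ± 0.09 in shControl (adjusted p = 3.2e-04) was the largest change of the 10 in any comparison with TMM scaling, though not with library totals. In sh*Ppargc1b* cells the rise was 0.37 ± 0.09 (adjusted p = 0.00452). The knockdown differences of *Mief2*, -0.04 and -0.17, had wide intervals (-0.24 to 0.16 and -0.37 to 0.02).

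*Mief1* (ENSMUSG00000022412, chr15:80234018-80253371, plus strand), which encodes the related receptor MiD51, stayed between 54.6 and 58.4 CPM in all 12 libraries. Its fitted differences ran from -0.04 to 0.03, with intervals within -0.12 and 0.11, and none passed. For IFN-β in shControl cells the interval of *Mief1* (-0.12 to 0.04) did not overlap that of *Mief2* (0.30 to 0.70), although they encode receptors of the same kind. *Mff* (ENSMUSG00000026150, chr1:82724890-82752394, plus strand), an adaptor that recruits DRP1 to the outer membrane, lay between 64.0 and 75.6 CPM. Its IFN-β difference in shControl was 0.09 (95% interval -0.00199 to 0.19, adjusted p = 0.1) and passed without sh*Ppargc1b* IFN-β replicate 1 (0.0323) or 2 (0.0436) and when only the libraries compared were fitted (0.0438). An opposite-strand transcript overlaps 195 of its exonic bases and held 416 counts against 47924. A same-strand gene model that shares 213 bases with *Mief1* held 0 counts.

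The proteases that cut OPA1 differed in their response to IFN-β. *Yme1l1* (ENSMUSG00000026775, chr2:23156369-23199260, plus strand), an ATP-dependent protease of the inner membrane, was at 187, 183 and 175 CPM in unstimulated shControl and 235.5, 244 and 239 CPM in IFN-β-treated shControl libraries. In sh*Ppargc1b* libraries it was at 183, 186 and 177 CPM without and 223, 228 and 216 CPM with IFN-β. Libraries with and without IFN-β did not overlap for either hairpin. The rise of *Yme1l1* was 31.7% in shControl (0.40 ± 0.04, adjusted p = 4.3e-07), and for the other hairpin it was 22.1% (0.29 ± 0.04, adjusted p = 1.9e-05). The knockdown difference was 0.00294 without IFN-β (95% interval -0.08 to 0.09) and -0.11 with it (-0.19 to -0.02, adjusted p = 0.0581). The latter passed in 4 of 18 alternatives: DESeq2 (0.0326), RLE size factors (0.0474), a block for runs of library codes (0.024), and without sh*Ppargc1b* IFN-β replicate 2 (0.0319). *Oma1* (ENSMUSG00000035069, chr4:103313812-103371868, plus strand), a protease that is activated when the membrane potential is lost, was at 16.3, 16.1 and 18.1 CPM in unstimulated shControl, 15.9, 17.2 and 15.03 CPM in IFN-β-treated shControl, 14.8, 14.8 and 15.95 CPM in unstimulated sh*Ppargc1b*, and 16.2, 14.95 and 14.91 CPM in IFN-β-treated sh*Ppargc1b* libraries. Its groups overlapped except in the unstimulated knockdown comparison, where the difference was -0.15 (95% interval -0.30 to 0.000725, adjusted p = 0.149).

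Counts of genes whose libraries did not overlap between groups are given with the same count over all genes. In unstimulated cells 5 of the 10 genes were lower in every sh*Ppargc1b* library (*Opa1*, *Mfn1*, *Mfn2*, *Mff* and *Oma1*) and 0 were higher, and 36.8% of all tested genes did not overlap in either direction. With IFN-β 4 were lower (*Opa1*, *Fis1*, *Mief2* and *Yme1l1*) and 1, *Dnm1l*, was higher, beside 38.7% of all genes. For IFN-β 7 of 10 did not overlap in shControl cells and 7 of 10 in sh*Ppargc1b* cells, beside 56.7% and 50.1% of all genes. In a single comparison of 3 libraries with 3, the exact two-sided permutation test cannot give a p below 0.1.

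The choice of scaling bore on the IFN-β results. TMM factors ranged from 1.07 to 1.09 for the 6 unstimulated libraries and from 0.914 to 0.941 for the 6 others. With library totals in their place, the IFN-β median over all genes was -0.27 for shControl and -0.22 for sh*Ppargc1b* cells. On that scale the fusion genes fell further (*Mfn2* by 0.64 and *Mfn1* by 0.61 in shControl), the rise of *Fis1* no longer passed in shControl (0.11, adjusted p = 0.117) or sh*Ppargc1b* cells (0.09, adjusted p = 0.212), and *Dnm1l*, *Mff*, *Mief1* and *Oma1* were called lower in both. *Yme1l1* and *Mief2* remained higher in shControl (0.16 and 0.26) and did not pass in sh*Ppargc1b* cells (0.08 and 0.16). The order of the responses, fusion genes lowest and *Mief2*, *Yme1l1* and *Fis1* highest, does not depend on that choice, since a scaling moves all genes of a library alike.

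Ratios of counts within a library do not depend on scaling. *Opa1* to *Dnm1l*, a gene of inner membrane fusion against a gene of fission, was 0.837, 0.828 and 0.884 in unstimulated shControl libraries. It was 0.773, 0.721 and 0.750 in unstimulated sh*Ppargc1b* libraries, 0.814, 0.770 and 0.811 in IFN-β-treated shControl, and 0.691, 0.682 and 0.656 in IFN-β-treated sh*Ppargc1b* libraries. The libraries did not overlap in any of the 4 comparisons, which have libraries in common. For single genes 36.8% to 56.7% did not overlap in these comparisons, and the share for other pairs of genes was not computed. The log2 ratio differed by -0.18 with the knockdown in unstimulated and -0.24 in IFN-β-treated cells, and after IFN-β by -0.09 among shControl cells and by -0.14 among sh*Ppargc1b* cells. The lowest ratios were those of cells with both the hairpin and IFN-β. *Mfn1* to *Mfn2* was 0.850 ± 0.0271 in unstimulated shControl and 0.950 ± 0.0248 in unstimulated sh*Ppargc1b* libraries, which did not overlap, and 0.870 ± 0.064 and 0.878 ± 0.0647 with IFN-β, which did (SD, n = 3). *Yme1l1* to *Oma1* went from 10.8 ± 1.01 to 14.98 ± 0.845 with IFN-β in shControl and from 12.01 ± 0.788 to 14.5 ± 0.741 in sh*Ppargc1b* libraries, without overlap in either, and overlapped between hairpins in both treatments.

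**Figure D3:**
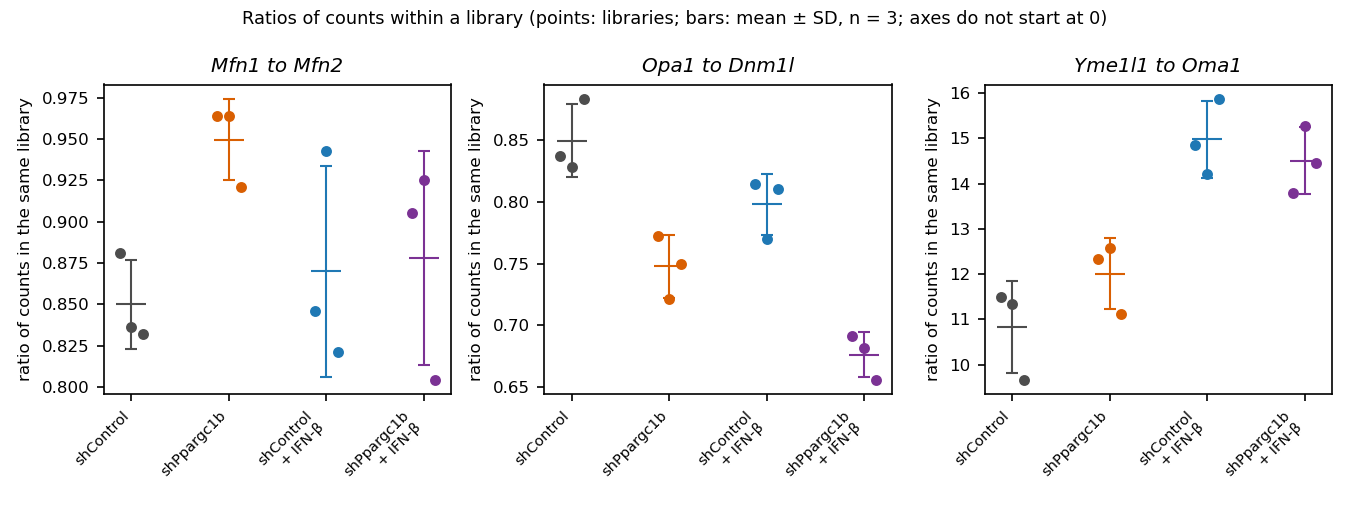
Ratio of raw counts of a pair of genes in the same library (y axes, not from 0) for *Mfn1* to *Mfn2*, *Opa1* to *Dnm1l* and *Yme1l1* to *Oma1* in 4 groups (x axis); points are libraries and bars the mean ± SD of 3. *Opa1* to *Dnm1l* goes from 0.850 in unstimulated shControl to 0.676 in IFN-β-treated sh*Ppargc1b* libraries, and *Yme1l1* to *Oma1* is higher in both IFN-β groups.

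Levels were compared between genes per kb of merged exon. In unstimulated shControl cells *Dnm1l* had the highest level, 24.3 ± 0.28 CPM per kb, followed by *Yme1l1* at 22.7 ± 0.764, *Opa1* at 13.6 ± 0.319 and *Fis1* at 10.6 ± 0.3 (SD, n = 3). *Mfn2* (8.29 ± 0.12) and *Oma1* (7.86 ± 0.52) overlapped, as did *Mief1* (7.08 ± 0.148) and *Mff* (6.93 ± 0.0899), and *Mfn1* (5.99 ± 0.112) and *Mief2* (1.89 ± 0.0482) came last. The order was changed little by the knockdown, except that *Mfn2* moved from rank 5 to rank 7 at 6.9 ± 0.341 CPM per kb, where it overlapped *Mief1* and *Mff*. With IFN-β *Yme1l1* (29.9 ± 0.528) passed *Dnm1l* (24.0 ± 0.936), *Fis1* (13.5 ± 0.582) passed *Opa1* (12.7 ± 0.102), and *Mfn2* (6.28 ± 0.293) was at rank 8 in shControl cells. The same order of the first 4 and the same rank of *Mfn2* held in IFN-β-treated sh*Ppargc1b* cells, where *Opa1* was at 11.5 ± 0.147 CPM per kb. A length that counts exons of isoforms that these cells do not use lowers a gene's value on this scale.

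**Figure D4:**
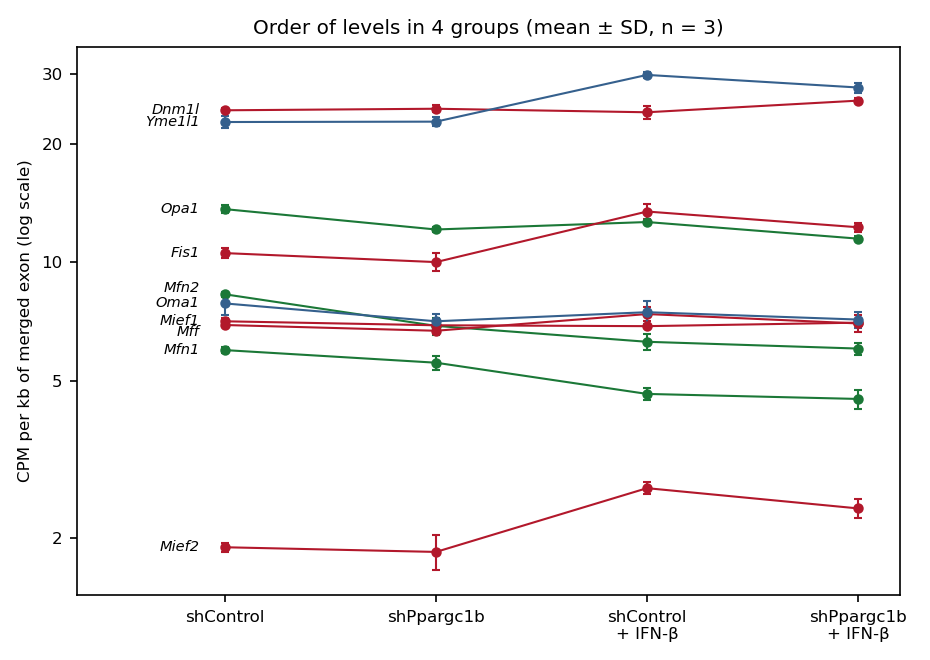
Mean CPM per kb of merged exon (y axis, log scale) of the 10 genes in 4 groups (x axis), with SD of 3 libraries; green marks fusion, red fission and blue OPA1 protease genes. *Yme1l1* crosses *Dnm1l* and *Fis1* crosses *Opa1* with IFN-β, and *Mfn2* drops from rank 5 to rank 8.

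Other genes of mitochondrial dynamics were described from 5 lists with 42 genes, of which 39 were tested (*Pld6*, *Gdap1* and *Calcoco2* were too low). In unstimulated cells 3 rose and 8 fell with the knockdown, beside 12.4% and 11.1% of all genes. The median log2 fold change was -0.04 beside -0.00489 for all genes. In IFN-β-treated cells 5 rose and 7 fell with the knockdown (median -0.05), beside 11.5% and 12.7% of all genes. For IFN-β 8 rose and 23 fell in shControl cells (median -0.20), beside 23.7% and 24.6% of all genes. In sh*Ppargc1b* cells 7 rose and 18 fell (median -0.17), beside 21.4% and 21.2%. The IFN-β medians over all genes were -0.03 and -0.02. The largest change was in *Marchf5* (ENSMUSG00000023307), a ubiquitin ligase of the outer membrane that acts on mitofusins and DRP1. It went from 40.3, 40.7 and 38.9 CPM to 157, 179 and 164 CPM with IFN-β in shControl libraries and from 44.3, 42.7 and 42.9 CPM to 145, 146 and 146 CPM in sh*Ppargc1b* libraries. The rise was 2.06 ± 0.05 (adjusted p = 1.2e-14) in shControl and 1.75 ± 0.05 (adjusted p = 9.4e-14) in sh*Ppargc1b* cells. It was larger than that of any of the 10 fusion and fission genes.

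Among regulators of outer membrane fusion, *Miga1*, a mitoguardin that favours fusion, rose with the knockdown by 0.59 ± 0.08 in unstimulated cells (adjusted p = 3.3e-05) and 0.58 ± 0.08 in treated cells (adjusted p = 6.5e-05), and fell with IFN-β (-0.47 and -0.48). Its paralog *Miga2* was lower by the knockdown in unstimulated cells (-0.29, adjusted p = 0.0371), as was *Slc25a46*, an outer membrane carrier family member (-0.15, adjusted p = 0.0384). These calls were lost in 6 and 7 of 18 alternatives. *Msto1* was called higher in treated cells (0.39, adjusted p = 0.0217), a call lost in 4 of 18. *Miga2* also fell after IFN-β, with log2 fold changes of -0.83 among shControl and -0.48 among sh*Ppargc1b* cells. Of the 9 inner membrane scaffold and protease genes, none was called for the knockdown in either treatment. With IFN-β 8 fell and 1 rose in shControl, where 24.6% of all genes were called lower and 23.7% higher. In sh*Ppargc1b* cells 7 fell and 1 rose, beside 21.2% and 21.4% of all genes. The largest falls were those of *Clpp*, a matrix protease subunit (-0.69 and -0.52), and *Phb*, a prohibitin of the inner membrane scaffold (-0.64 and -0.50). *Yme1l1* thus rose while most genes of this list fell.

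Of the 10 fission cofactors, *Inf2*, a formin that assembles actin at fission sites, rose with the knockdown in both treatments (0.25 and 0.23, adjusted p = 0.00297 and 0.00521). *Spire1*, an actin nucleator, rose by 0.22 and 0.27 (adjusted p = 0.0162 and 0.00536), and the first of these calls was lost in 2 of 18 alternatives. *Akap1*, an anchor of protein kinase A on the outer membrane, was called higher with the knockdown under IFN-β (0.37 ± 0.13, adjusted p = 0.0485), a call lost in 6 of 18. The lowest fold change after IFN-β in this list was that of *Mtfp1*, an inner membrane protein that favours fission, in shControl cells (-1.47 ± 0.46, adjusted p = 0.0159). That call was lost without shControl IFN-β replicate 1 (0.0687) or shControl unstimulated replicate 1 (0.0576). *Akap1* fell after IFN-β, with log2 fold changes of -1.28 ± 0.13 among shControl and -1.003 ± 0.12 among sh*Ppargc1b* cells. Of 6 motility genes, *Trak2*, an adaptor that couples mitochondria to kinesin, fell with the knockdown by 0.31 without and 0.27 with IFN-β (adjusted p = 7.6e-05 and 2.8e-04). *Armcx3* rose with IFN-β by 0.58 and 0.37 (adjusted p = 3.8e-04 and 0.0129), and the second call was lost in 3 of 18 alternatives. Of 8 tested mitophagy genes, 4 fell with the knockdown without and 5 with IFN-β, and none rose. Of all genes, 11.1% and 12.7% were called lower. The call of the smallest fall was lost in 6 of 18 alternatives without IFN-β and in 13 of 18 with it. Among the mitophagy genes that fell was the kinase gene *Pink1* (-0.50 ± 0.08, adjusted p = 1.6e-04, and -0.39 ± 0.08, adjusted p = 0.00167), and under IFN-β also *Bnip3*, a mitophagy receptor gene (-0.42 ± 0.11, adjusted p = 0.0105). *Optn*, which encodes an autophagy receptor, rose with IFN-β by 1.47 ± 0.09 in shControl and 1.19 ± 0.09 in sh*Ppargc1b* cells.

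**Figure D5:**
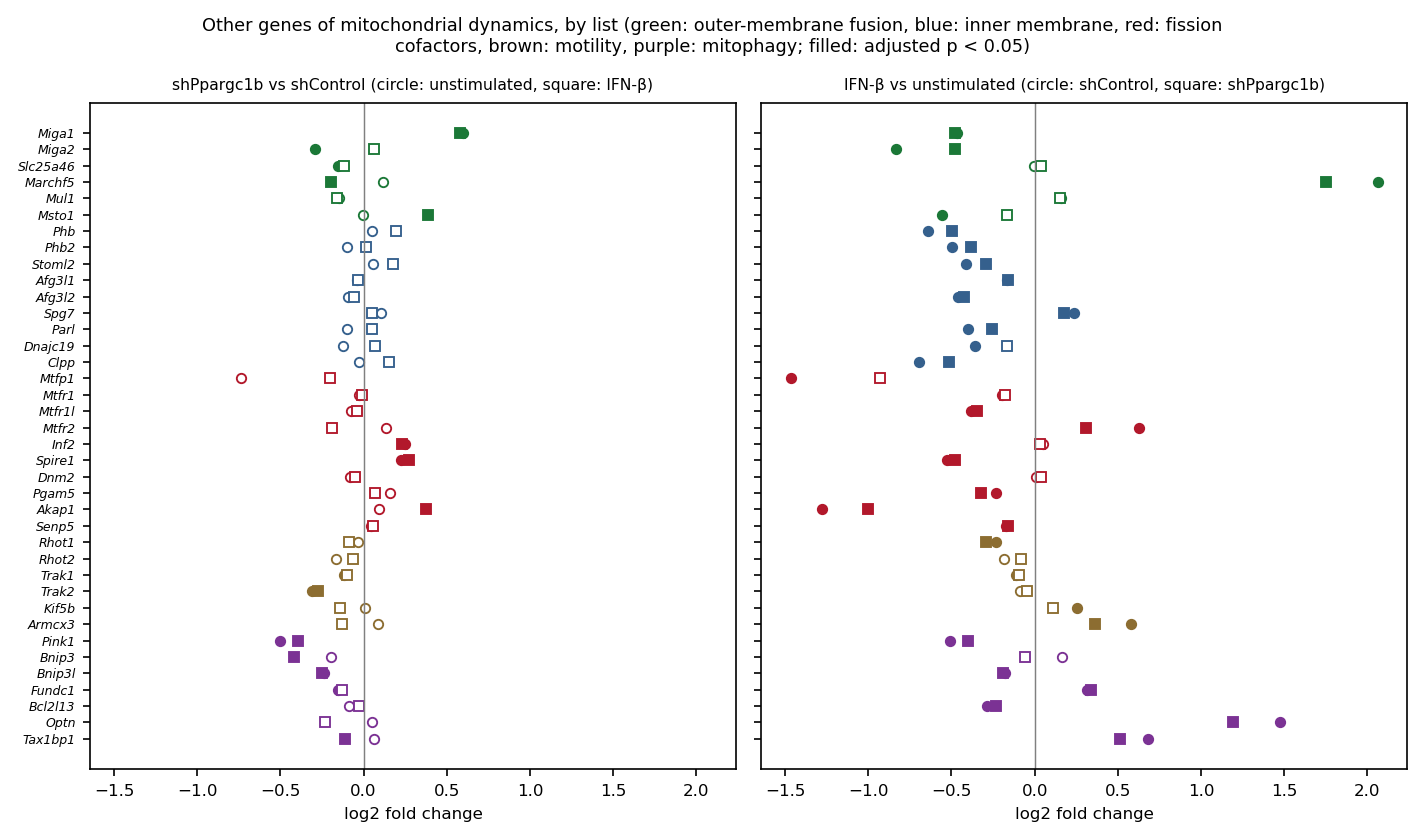
Fitted log2 fold change (x axis) of 38 of the 39 tested genes of 5 other lists of mitochondrial dynamics (y axis) for the knockdown (left) and for IFN-β (right); circles and squares are the comparisons named over each panel, and filled symbols passed an adjusted p of 0.05. *Marchf5* and *Optn* stand to the right in the IFN-β panel, and most inner membrane genes lie left of 0 there and near 0 in the knockdown panel.

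The genes whose 12 values, centred on their own mean, lay nearest to those of a member were sought among 8751 genes with a mean log2 CPM of at least 3. For *Opa1* they were *Ctps2*, *Appbp2* and *Slc35e2* (root mean square difference 0.0295, 0.0302 and 0.0306 log2 units, against a spread of 0.0927 in *Opa1* itself). For *Mfn2* they were *Coq5*, *Mapk14* and *Dlst* (0.0491, 0.0493 and 0.0496, against 0.183), of which *Coq5* encodes an enzyme of coenzyme Q synthesis and *Dlst* a subunit of the oxoglutarate dehydrogenase of the TCA cycle. *Coq5* differed by -0.31 and -0.16 with the knockdown and -0.38 and -0.24 with IFN-β, and *Dlst* by -0.18, -0.09, -0.33 and -0.23 in the same order. *Mapk14* differed by -0.235, -0.13, -0.35 and -0.24. For the knockdown under IFN-β, *Mapk14* was called in edgeR (adjusted p = 0.0285), whereas *Coq5* (0.0522) and *Dlst* (0.171) were not. For *Dnm1l* they were *Dnajc10*, *Arl8b* and *Ppp2r5e* (0.0308, 0.0324 and 0.033, against 0.0468). With a spread so near the differences, the *Dnm1l* neighbours share little more than a flat profile.

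Summed markers of other cell types were in part higher in sh*Ppargc1b* libraries. Of all genes, 12.4% were called higher and 11.1% lower with the knockdown without IFN-β, and 11.5% and 12.7% with it. The 6 mast cell or basophil markers summed to 8.71 to 16.6 CPM in unstimulated shControl and 22.1 to 25.7 CPM in unstimulated sh*Ppargc1b* libraries, with 2 of 6 called higher. With IFN-β they summed to 7.64 to 14.6 and 12.8 to 21.1 CPM, again with 2 called higher. Their fitted knockdown differences ran from 0.02 to 1.64 without IFN-β and from -0.85 to 1.47 with it. The 7 neutrophil markers summed to 35.6 to 74.0 and 73.4 to 126 CPM without and 31.3 to 76.1 and 66.7 to 121 CPM with IFN-β, with 1 of 7 called higher in each. That gene was *S100a8* (20.3 to 78.9 CPM over all libraries), which with *S100a9* (7.52 to 35.5 CPM) made up most of the sum. The fitted knockdown differences of *Elane* (-1.46 and -0.70), *Mpo* (-0.92 and -0.71) and *Ly6g* (-0.42 and -0.66) had the other sign and did not pass. The 8 dendritic markers summed to 3501 to 4134 and 3981 to 4575 CPM without IFN-β, with 3 called higher in sh*Ppargc1b* cells, and to 3763 to 4544 and 4331 to 4954 CPM with it, with 4 called higher. The 7 macrophage markers summed to 2212 to 2345 and 2245 to 2332 CPM without IFN-β and to 2735 to 2855 and 2636 to 2719 CPM with it. In each of these knockdown comparisons 1 of the 7 was called higher and 2 were called lower. The 6 proliferation markers summed to 265 to 350 and 170 to 275 CPM without IFN-β, with 1 called lower. With IFN-β they summed to 224 to 254 and 145.5 to 228 CPM, with 0 called. The part of these differences in the lower *Opa1* and *Mfn2* levels was not tested.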

How the data were processed

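RNA from 12 libraries of mouse bone marrow-derived DCs was sequenced by the authors after depletion of ribosomal RNA. Per the study's methods, adapters were trimmed with trim_galore and reads were mapped to mm10 with STAR in its gene counting mode. The deposited values are raw counts per GENCODE gene, neither normalized nor pooled. Ambiguous and multiply mapped reads are not counted in that mode, and the strand setting was not stated, so reads of a gene and an overlapping antisense gene may not be told apart. All value columns were used. Groups came from the labels, which gave no replicate numbers, and replicate numbers follow the records.

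Counts were tested with edgeR 4.0.16 in R 4.3.3: filterByExpr (minimum count 10, minimum total 15) kept 18228 genes with 99.96% of the counts, TMM factors scaled the libraries, and a quasi-likelihood model had a mean for each group and took in all 12 libraries. Adjusted p-values (Benjamini-Hochberg) cover every gene tested. Contrasts were the knockdown without and with IFN-β, IFN-β in each kind of cell, and the interaction. Errors are SD for levels and SE for fold changes. Libraries of a group had Spearman correlations of 0.993 to 0.995, and no pair agreed within counting noise (chi-square per degree of freedom 8.11 to 20.2). Alternatives were DESeq2 1.42.0, other size factors, library totals, no filter, the libraries of a contrast alone, a block for runs of library codes, and each library left out. Positions came from GENCODE M21 (GRCm38), a later release than the authors used, and promoter sequences from RefSeq (GRCm38.p6). Genes outside the group were named from the called changes of each list by size, at most 3 per list and comparison. For some lists fewer were named. The members, the gene lists and the tests were chosen with earlier results of these data known. The values of 1 gene of the mitophagy list, which its counts include, are not reported here.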

Additional observations from a re-analysis of the deposited data

Results flagged for a closer look

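In edgeR *Marchf5* was the 1 gene among the 39 tested genes of related lists whose knockdown effect differed between treatments by a test of the difference itself, and with DESeq2 2 of them were called. The knockdown difference was 0.12 in unstimulated cells (adjusted p = 0.091) and -0.19 in IFN-β-treated cells (adjusted p = 0.00477), and the interaction was -0.31 ± 0.06 (adjusted p = 0.0388 in edgeR). The 3 IFN-β-treated sh*Ppargc1b* libraries were at 145, 146 and 146 CPM, below the 3 shControl libraries at 157, 179 and 164 CPM. The call held with DESeq2 (adjusted p = 0.00255) and was lost in 11 of 17 alternatives, which were library totals (0.0703) and 10 of the 12 settings that leave out 1 library, all but those without shControl IFN-β replicate 1 or sh*Ppargc1b* IFN-β replicate 2. The adjusted p ranged from 0.00255 to 0.162 over all alternatives and was highest without shControl unstimulated replicate 3.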

How the results depend on the processing

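Of 890 recomputed fold changes of the 10 genes, 836 kept their direction and their side of the threshold. With the direction kept, 11 lost a call and 19 gained one. The other 24 changed sign, and some of these also passed the threshold with library totals. The number of the 10 genes called with the knockdown and IFN-β was 1, and it was 2 with DESeq2, RLE size factors or library totals, 3 with a block for runs of library codes, 0 when every gene with at least 1 count was tested, and 1 to 2 when a library was left out. The interaction count over all genes, 133, was 449 with DESeq2, 525 without the filter, 425 with the block, 84 with library totals and 36 to 271 when a library was left out, lowest without shControl unstimulated replicate 3 and highest without sh*Ppargc1b* IFN-β replicate 2. For other genes of the pathway it was 2 with DESeq2, 0 with library totals and 0 to 1 when a library was left out. Other pathway genes called for the knockdown without IFN-β, 11, were 5 to 11 when a library was left out, with 5 without shControl unstimulated replicate 2. The labels gave no replicate numbers, so the block is an alternative only. Libraries of the same run of codes deviated together weakly, with r of 0.0276 to 0.146 over 18 pairs. For 36 pairs of different runs r was -0.154 to 0.0565. Deviations were taken from group means, so these 2 ranges are not independent, and they do not settle whether a run is a pairing.

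The values that changed sign were mostly near 0. With library totals these were, for the knockdown without IFN-β, *Dnm1l* (-0.00044) and *Yme1l1* (-0.0105), for IFN-β in shControl *Mff* (-0.15) and *Spg7* (-0.0051), for IFN-β in sh*Ppargc1b* cells *Dnm1l* (-0.14), *Mff* (-0.14), *Mief1* (-0.18), *Oma1* (-0.19) and *Spg7* (-0.0246), and for the interaction *Mff* (0.0059). Without the filter *Oma1* in sh*Ppargc1b* cells was -0.00604, and with the libraries of the contrast alone *Dnm1l* in shControl was 0.0018 for IFN-β. When a library was left out, the knockdown without IFN-β ranged from -0.0029 to 0.0285 for *Dnm1l*, -0.0849 to 0.0418 for *Mief2* and -0.0227 to 0.0256 for *Yme1l1*. IFN-β ranged from -0.044 to 0.0199 for *Dnm1l* in shControl and -0.0217 to 0.0519 for *Oma1* in sh*Ppargc1b* cells, and the interaction from -0.11 to 0.0041 for *Fis1* and -0.0689 to 0.0068 for *Mff*. The causes of these changes were not tested. With library totals 39 of 40 group means moved by more than 1 SD, and no within-library ratio did when a library was left out (0 of 36). Of 1493 alternatives of called values of the other genes, 125 lost the call and 2 changed sign. With 3 libraries a group, a difference whose interval includes 0 could not be told from none.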
